A study of Mus musculus with 6 samples.

Results

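The vascular basement membrane is represented here by 10 transcripts taken from the RNA-seq of lung endothelial cells (EC) of infant and young adult mice. The members were selected by gene symbol as named components of this matrix, and all 10 had a row among the 12623 genes of the deposited table and passed the filter on low values, as 12458 genes did. They comprise the collagen IV chains Col4a1 and Col4a2, the nidogens Nid1 and Nid2, the laminin chains Lama4, Lama5, Lamb1 and Lamc1, the perlecan gene Hspg2, and Sparc. The libraries came from C57BL/6N mice with no mutation or treatment named, 3 from infant animals in the second week after birth and 3 from young adult animals around the third month. EC were released from the lung with collagenase and sorted by flow cytometry as live cells positive for CD31 and CD34 and negative for leukocyte, lymphatic and erythroid surface markers. The comparison asks which transcripts change while lung EC leave the proliferating state of the growing vessel and become quiescent.

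The basement membrane is a thin sheet of extracellular matrix beneath the endothelium. Laminins are cross-shaped trimers of an alpha, a beta and a gamma chain that bind integrins on the cell and assemble into a first network, and collagen IV forms a second, covalently linked network. Nidogens and the heparan sulfate proteoglycan perlecan connect both networks, and SPARC is a secreted calcium-binding glycoprotein that binds collagens, including collagen IV. In vessels the chains come from EC and from the pericytes and fibroblasts around them, and the endothelial laminins are built around the alpha 4 or the alpha 5 chain.

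Levels are given as RPKM (reads per kilobase of transcript and scaled to the mapped reads of the library), as the authors deposited them, to 1 decimal. RPKM is scaled by transcript length, and levels are set side by side between genes on that basis. Coverage along the transcripts of the amplified RNA is unknown, so such orders and shares between genes are approximate. Fold changes are young adult over infant on the scale log2(RPKM + 1), which understates the change of low transcripts, and come from limma fitted to all tested genes with Benjamini-Hochberg adjustment. A gene is called lower or higher in young adult EC where the adjusted p was below 0.05 and the log2 fold change was larger than 0.81 in size, here termed the fold limit.

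Several properties of the libraries bear on the members. The 12 endothelial markers on a fixed list were detected in every library and summed to 3629 to 5294 RPKM in infant and 5482 to 6030.5 RPKM in young adult EC, and 1 of them was called higher. The sum of 11 fibroblast markers was 1322, 374.1 and 967.2 RPKM in infant replicates 1, 2 and 3 and 13.3 to 27.4 RPKM in young adult EC, and 10 of the 11 were called lower. The sum of 13 mural cell markers was 277.7, 121.4 and 313.8 RPKM in the infant libraries and 18.2 to 26.4 RPKM in young adult EC, and 12 were called lower. No fibroblast marker was at 0, and among the mural markers Cspg4 was listed at 0 in young adult replicate 1. Infant replicate 2 thus held the lowest fibroblast and mural sums and the highest endothelial sum of the infant libraries, and results are also given with it alone or without it. It was the lowest infant library in 9 of the 11 fibroblast and 10 of the 13 mural markers, while Dcn and Lum were highest in it. Its epithelial sum was also the highest, at 11253 RPKM against 6434 and 8421 RPKM in infant replicates 1 and 3. The same held for its leukocyte sum, at 515.6 against 320 and 418.8 RPKM. All 7 erythroid markers, 4 of 10 epithelial, 2 of 8 leukocyte markers and the 1 mesothelial marker in the table were called lower as well. The erythroid transcripts made up 11.1%, 3.42% and 23.6% of the summed RPKM in infant replicates 1, 2 and 3. In young adult EC they made up 0.307% to 0.489%. The Y-linked transcripts Ddx3y, Eif2s3y, Kdm5d and Uty were present in all 3 infant libraries and listed at 0 in all 3 young adult libraries, although the methods name female mice, so that age and the sex of the animals cannot be told apart. Xist, the transcript of the inactive X chromosome, was at 8.2, 8.7 and 7.6 RPKM in infant and at 15.6, 12.5 and 13.4 RPKM in young adult EC. Each infant library thus held Y-linked transcripts and Xist together. The depth of the libraries is unknown, because the values are RPKM. In sorted bulk RNA, fewer cells of a type and less RNA per cell cannot be told apart either.

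Of these members Col4a1, Col4a2, Nid1, Nid2, Lama4, Lamb1, Lamc1, Hspg2 and Sparc were lower in young adult EC, and Lama5 was not called. This gives 9 of 10 called lower and 0 higher, against 8.1% of all 12458 tested genes called lower and 3.33% called higher (1009 and 415 genes, or 611 and 532 after quantile normalization). The median log2 fold change of the members was -1.37, and that of all tested genes was -0.07. In 9 members every infant library lay above every young adult library, as it did in 27.1% of all tested genes, and in Lama5 every young adult library lay above every infant library, as in 16.4% of all tested genes. The members together summed to 1465, 1013 and 1540.3 RPKM in the infant libraries and to 425.1, 462.2 and 414.6 RPKM in the young adult libraries. This sum was 0.449% ± 0.0868 (SD, n = 3) of all RPKM in infant EC and 0.156% ± 0.0137 (SD, n = 3) in young adult EC. Sparc carried most of it, and without Sparc the sums were 394.6 to 496.7 RPKM in infant and 143.1 to 164.4 RPKM in young adult EC.

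**Figure D1:**
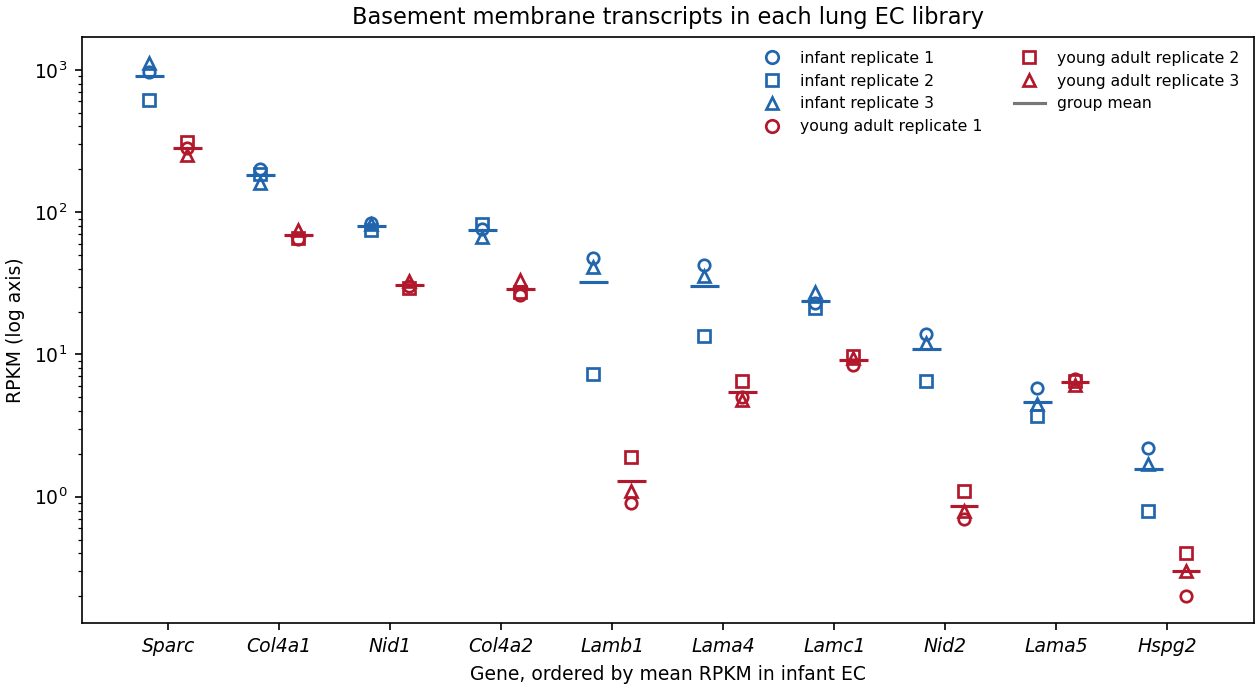
RPKM of the 10 basement membrane transcripts in each library on a log axis, with genes ordered by their infant mean; blue symbols are infant and red symbols young adult libraries, the symbol shape gives the replicate, and bars are group means. In 9 genes all 3 infant libraries lie above all 3 young adult libraries, whereas Lama5 has the opposite order, and infant replicate 2 (blue squares) lies well below the other infant libraries in Lamb1, Lama4, Nid2, Hspg2 and Sparc.

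The collagen IV chains are described first, because their triple helices form the covalent network. Col4a1 (mm10, chr8:11198423-11312889) was measured at 201.8, 184.8 and 159.8 RPKM in infant and at 64.9, 66.3 and 75.4 RPKM in young adult EC. The groups were far apart, with a log2 fold change of -1.39 ± 0.13 (SE; limma adjusted p = 0.00102). Col4a2 (chr8:11312805-11449287), which encodes the partner chain of the same helix, was measured at 76.1, 82.4 and 66.4 RPKM in infant and at 26.2, 27.5 and 33.4 RPKM in young adult EC (a log2 change of -1.34 ± 0.13, adjusted p = 0.00124). By RPKM, Col4a2 was highest in infant replicate 2, the infant library with the lowest summed fibroblast and mural markers. That library also had the lowest erythroid share of the summed RPKM, 3.42% against 11.1% and 23.6% in infant replicates 1 and 3. A larger share can lower all other values, so this order of the infant libraries is uncertain. Both chains fell by similar amounts, 2.64-fold and 2.58-fold by the ratio of the means, and the ratio of Col4a1 to Col4a2 was 2.24 to 2.65 in infant and 2.26 to 2.48 in young adult EC. The log2 ratio was 1.28 ± 0.12 (SD, n = 3) in infant and 1.25 ± 0.07 (SD, n = 3) in young adult EC, and the groups overlapped (exact two-sided permutation test, p = 1, adjusted p = 1). This ratio has a difference of -0.029 that changes sign when infant replicate 1 or young adult replicate 3 is left out (0.035 and 0.0094).

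The gene pair lies head to head. In the promoter table Col4a1 is on the minus strand with its start site at chr8:11312826 and Col4a2 on the plus strand with its start site at chr8:11312805, so transcripts from these starts share 22 bases. The RefSeq extent of Col4a1 given above reaches further, to chr8:11312889, and shares 85 bases with Col4a2. Reads from shared bases cannot be assigned to either gene when counted without strand. The promoter windows at these start sites (RefSeq, GRCm38.p6, 250 bases before to 50 bases after the start, 300 bases in all) share 78 bases. Their GC content was 74% for Col4a1 and 73.7% for Col4a2, against a median of 52.7% over all 32851 windows.

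Upstream sequence is shown for 3 members that differed in their change, namely Lamb1 with the largest difference, Nid1 with infant libraries that were alike, and Lama5, which was not called lower. The RefSeq table held such a window for 7 members, and Lama4, Lamc1 and Nid2 had none. GC boxes (GGGCGG or CCGCCC) were present in 35.7% and CCAAT boxes (CCAAT or ATTGG) in 37.4% of all windows. Below are the bases of the window that lie upstream of every annotated transcript of the gene, 5′ to 3′ on the strand of the gene, with GC boxes and CCAAT boxes in capitals. They are Lamb1 at chr12:31265043-31265145 (plus strand), Nid1 at chr13:13437352-13437550 (plus strand) and Lama5 at chr2:180225905-180226109 (minus strand).
Lamb1: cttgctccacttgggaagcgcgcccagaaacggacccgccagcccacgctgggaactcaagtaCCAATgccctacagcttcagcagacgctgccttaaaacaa
Nid1: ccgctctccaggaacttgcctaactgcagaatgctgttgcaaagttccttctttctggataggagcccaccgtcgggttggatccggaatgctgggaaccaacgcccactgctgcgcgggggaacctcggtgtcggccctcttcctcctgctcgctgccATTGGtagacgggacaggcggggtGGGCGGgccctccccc
Lama5: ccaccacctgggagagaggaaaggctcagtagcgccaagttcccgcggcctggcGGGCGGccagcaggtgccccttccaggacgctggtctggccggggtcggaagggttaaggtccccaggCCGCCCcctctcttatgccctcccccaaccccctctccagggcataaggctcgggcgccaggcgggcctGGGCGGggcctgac
The stretches also overlap annotated non-coding genes, Gm32899 at Lamb1, the pseudogene Gm7426 at Nid1 and Gm52542 at Lama5. Over the whole windows, Lama5 held 4 GC boxes and no CCAAT box, Hspg2 5 and none, Nid1 1 of each, Lamb1 2 GC boxes and 1 CCAAT box, Col4a1 1 of each, Col4a2 3 GC boxes and 1 CCAAT box, and Sparc neither. Both uncalled Lama5 and called Hspg2 were thus rich in GC boxes without a CCAAT box, and a match of letters is a description and no binding site.

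Nidogens, the linkers between laminin and collagen IV, both fell, and by unequal amounts. Nid1 (chr13:13437602-13512275) was measured at 83.8, 74.5 and 82.3 RPKM in infant and at 30.1, 29.5 and 33 RPKM in young adult EC. Infant replicate 2 was close to the other infant libraries here, at 0.897 times their mean, and the log2 fold change was -1.35 ± 0.10 (adjusted p = 0.000569). Nid2 (chr14:19751257-19811787) was lower throughout, at 13.9, 6.5 and 12.1 RPKM in infant and at 0.7, 1.1 and 0.8 RPKM in young adult EC. It fell by 2.61 ± 0.25 on the log2 scale (adjusted p = 0.00109), a 12.5-fold ratio of the means. The ratio of Nid1 to Nid2 was accordingly 6.03 to 11.5 in infant and 26.8 to 43 in young adult EC, a log2 difference of 2.22. The groups did not overlap, and the exact two-sided permutation p was 0.1, the smallest that 3 against 3 libraries allow (0.133 after adjustment over the 4 chain ratios compared).

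Laminin chains gave the widest range of changes. Lamb1 (chr12:31265146-31329644), a beta chain of the laminins of developing and mature vessels, had the largest difference of all members. It was measured at 47.8, 7.3 and 41.4 RPKM in infant and at 0.9, 1.9 and 1.1 RPKM in young adult EC. Infant replicate 2 held 0.164 times the mean of the other infant libraries, yet lay 5.62-fold above the young adult mean. The log2 fold change was -3.51 ± 0.61 (adjusted p = 0.00821), and with infant replicate 2 as the only infant library it was -1.88 (adjusted p = 0.0419). Lama4 (chr10:38965515-39110188), the alpha 4 chain, was measured at 42.3, 13.5 and 35.3 RPKM in infant and at 5, 6.5 and 4.8 RPKM in young adult EC. As for Lamb1, infant replicate 2 lay between the other infant and the young adult libraries. The log2 fold change of Lama4 was -2.15 ± 0.37 (adjusted p = 0.00798) and was -1.18 (adjusted p = 0.0498) with infant replicate 2 alone. Lamc1 (chr1:153218922-153332786), the gamma chain of most laminins, was measured at 23, 21.1 and 27.3 RPKM in infant and at 8.4, 9.7 and 9.5 RPKM in young adult EC. Its infant libraries were close to each other, and it fell by 1.28 ± 0.12 on the log2 scale (adjusted p = 0.00102).

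Lama5 (chr2:180176373-180225904), the alpha 5 chain, did not follow the other members. It was measured at 5.8, 3.7 and 4.5 RPKM in infant and at 6.7, 6.5 and 6.1 RPKM in young adult EC. The groups did not overlap, but the log2 fold change of 0.41 ± 0.14 (95% interval 0.08 to 0.74) did not pass the test (adjusted p = 0.0717). Without infant replicate 1 the adjusted p of Lama5 was 0.0365, and the gene was called in none of the 22 alternative settings. The ratio of Lama4 to Lama5 was 7.29, 3.65 and 7.84 in infant and 0.746, 1 and 0.787 in young adult EC. Lama4 thus exceeded Lama5 in each infant library and in none of the young adult libraries, a log2 difference of -2.82 (exact two-sided permutation p = 0.1, adjusted 0.133).

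The laminin chains were next described as shares of their class, over the alpha, beta and gamma chains in the table. Lama4 made up 67.5% to 73.1% of the alpha chain RPKM in infant and 37% to 46.4% in young adult EC, while Lama5 made up 9.32% to 18.5% and 46.4% to 50.4%. Lama2, the alpha chain typical of muscle and mesenchyme, made up 13.5% to 17.4% in infant and 1.43% to 2.48% in young adult EC. Total alpha chain RPKM was 58.7, 20 and 48.3 in infant and 13.5, 14 and 12.1 in young adult EC, so the share of Lama5 differed more than its level did. Among beta chains, Lamb1 made up 59.3%, 30% and 70.6% in infant and 7.75% to 11.7% in young adult EC. Lamb2 filled most of the remainder, at 30.5, 15.5 and 15.9 RPKM in infant and at 10.2, 13.8 and 12.2 RPKM in young adult EC. The ratio of Lamb1 to Lamb2 was 1.57, 0.471 and 2.6 in infant and 0.0882, 0.138 and 0.0902 in young adult EC, a log2 difference of -3.59 (exact two-sided permutation p = 0.1, adjusted 0.133). Lamb2 was the predominant beta chain in infant replicate 2 and in all young adult libraries. Lamc1 made up 86.4% to 97.5% of the gamma chain RPKM in every library.

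**Figure D2:**
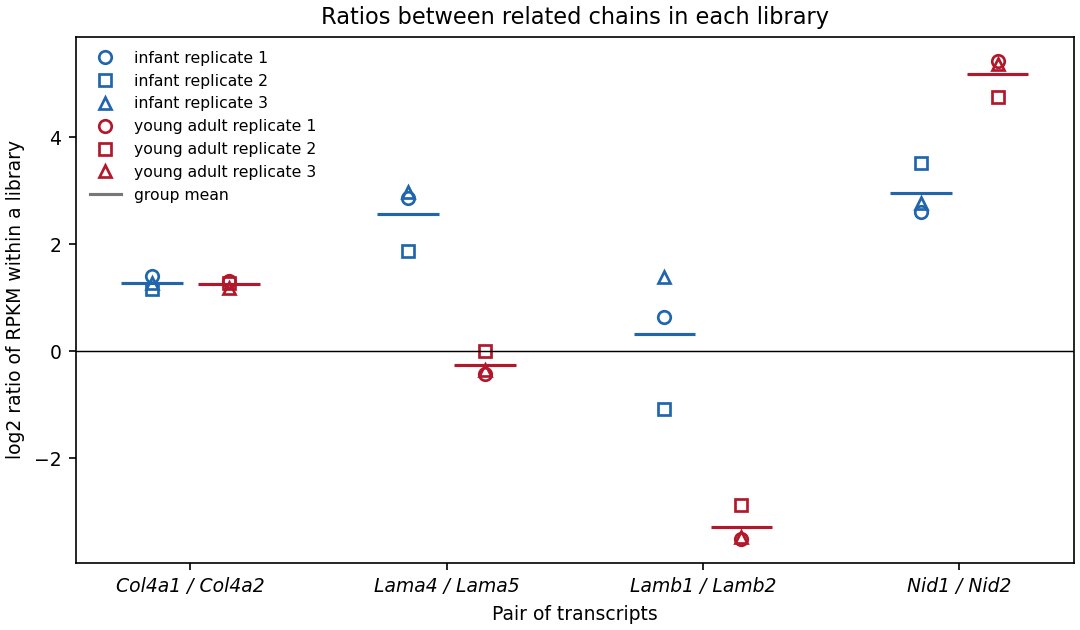
log2 ratio of the RPKM of related chains within each library; blue symbols are infant and red symbols young adult libraries, shapes give the replicate and bars the group mean. The Col4a1 to Col4a2 ratio overlaps between the groups, the other 3 ratios do not, and infant replicate 2 lies towards the young adult libraries in each of those.

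Hspg2 (chr4:137468751-137570630), the perlecan gene, was the lowest member in both groups. It was measured at 2.2, 0.8 and 1.7 RPKM in infant and at 0.2, 0.4 and 0.3 RPKM in young adult EC, a few steps above the 0.1 RPKM to which the table is rounded. The log2 fold change was -0.94 ± 0.22 (adjusted p = 0.021). The call was lost when infant replicate 1, infant replicate 3 or any single young adult replicate was left out (adjusted p from 0.0584 to 0.076), and the gene did not reach the filter with infant replicate 2 as the only infant library.

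Sparc (chr11:55394159-55420080) was the most abundant member by far. It was measured at 968.3, 618.4 and 1110 RPKM in infant and at 282, 312.8 and 250.2 RPKM in young adult EC, and was 15th in infant and 110th in young adult EC in the order of all genes by mean RPKM. All infant libraries lay well above the highest young adult library, and the log2 fold change was -1.63 ± 0.24 (adjusted p = 0.00434).

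By level, infant EC had the order Sparc, Col4a1, Nid1, Col4a2, Lamb1, Lama4, Lamc1, Nid2, Lama5 and Hspg2. Nid1 and Col4a2, Lamb1 and Lama4, and Lama4 and Lamc1 were neighbours whose ranges over the libraries overlapped. Young adult EC had the order Sparc, Col4a1, Nid1, Col4a2, Lamc1, Lama5, Lama4, Lamb1, Nid2 and Hspg2, with overlap between Nid1 and Col4a2, between Lama5 and Lama4 and between Lamb1 and Nid2. The collagens, Nid1 and Sparc thus kept their places, whereas Lamb1 and Lama4 stood above Lamc1 in infant EC by their means and below it in young adult EC.

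Infant replicate 2 divided the members. It was the lowest infant library in 8 of 10 members, against 35.6% of all tested genes. Relative to the mean of the other infant libraries it held 0.839 to 1.16 times the RPKM of Lamc1, Nid1, Col4a1 and Col4a2, 0.595 times that of Sparc, 0.5 times that of Nid2, 0.41 times that of Hspg2, 0.348 times that of Lama4 and 0.164 times that of Lamb1. The same ratio was 0.327 for the summed fibroblast markers, 0.41 for the mural, 0.175 for the erythroid and 1.4 for the endothelial markers. It was 1.52 for the epithelial markers, 1.4 for the leukocyte markers and 1.8 for the mesothelial marker. The part of these cell types in the members' differences was not tested. In the 9 members called lower, infant replicate 2 alone lay from 2.2-fold (Sparc) to 7.5-fold (Nid2) over the young adult mean. With this library as the only infant library, log2 fold changes ran from -1.12 (Lamc1) to -2.01 (Nid2) in the 8 members other than Lama5 and Hspg2. Lama5 was at 0.66, and Hspg2 did not reach the filter. In that fit the lone library was assumed to vary like the young adult libraries. Without infant replicate 2, 9 members were called lower, against 1308 of 12394 tested genes.

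**Figure D3:**
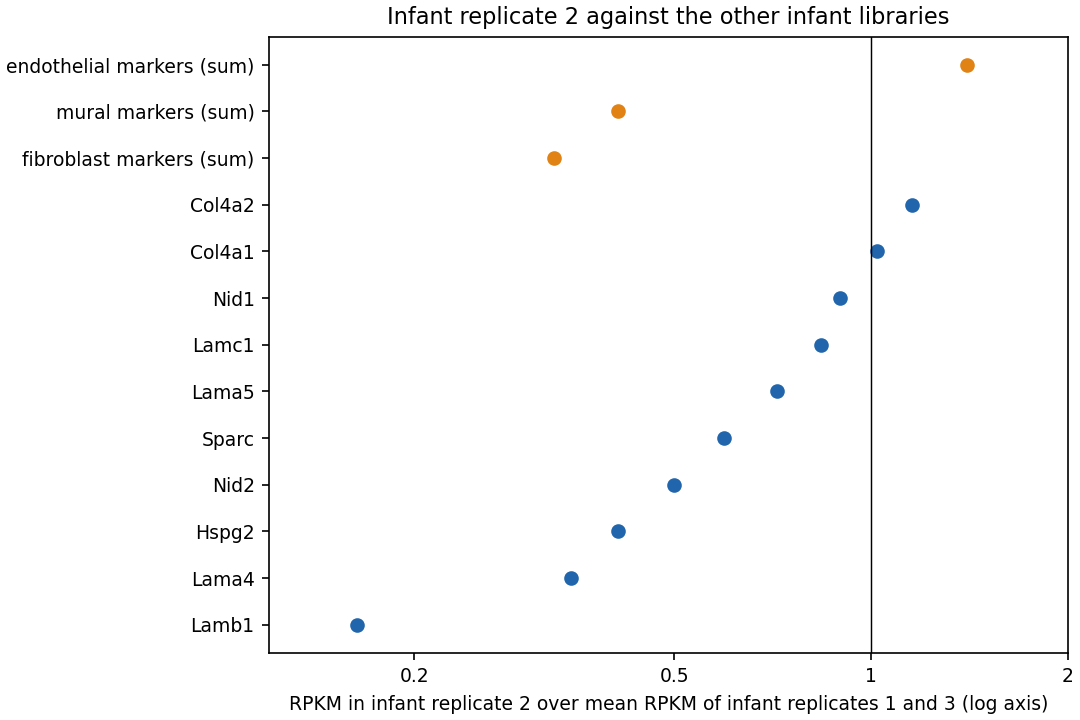
RPKM in infant replicate 2 divided by the mean of infant replicates 1 and 3, on a log axis, for the 10 basement membrane transcripts (blue) and for the sums of 3 marker lists (orange); the vertical line marks equal levels. Col4a1 and Col4a2 lie at 1.02 and 1.16, and Lamb1 at 0.164 lies below the fibroblast and mural marker sums at 0.327 and 0.41. The erythroid marker sum, at 0.175, is not drawn.

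Across the 6 libraries the members other than Lama5 were positively correlated with each other. The lowest Pearson r among them was 0.832, between Hspg2 and Col4a2, and Nid2 reached 0.983 with Lamc1. Lamb1 and Lama4 had a Pearson r of 0.999 on the log2 scale and each reached 0.993 or more with Hspg2, Col4a1 and Col4a2 had an r of 0.993, and Sparc and Nid2 one of 0.989. Lama5 was negatively correlated with every other member, from -0.439 with Hspg2 to -0.816 with Col4a2. These values describe 6 libraries in 2 groups and are set largely by the difference between the groups, so no test is attached.

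Among other basement membrane genes, 18 of the 31 listed were in the table and tested. Of these, 6 were called lower, 1 higher and 11 neither, against 8.1% lower and 3.33% higher of all tested genes. Their median log2 fold change was -0.57. Those called lower were the laminin chains Lama2 (-2.56 ± 0.37, adjusted p = 0.00435) and Lamb3 (-0.82 ± 0.21, adjusted p = 0.0289), the collagen IV chains Col4a5 (-1.30 ± 0.15, adjusted p = 0.00209) and Col4a3 (-1.02 ± 0.17, adjusted p = 0.00738), the integrin ligand nephronectin Npnt (-1.81 ± 0.16, adjusted p = 0.000955) and the fibulin Fbln2 (-1.95 ± 0.49, adjusted p = 0.0267). Fbln2 was the most abundant of these at a mean of 31.5 RPKM in infant EC, and Lamb3, Col4a3 and Col4a5 stayed below 3 RPKM on average. The call of Lamb3 was lost without infant replicate 1 or 3 or young adult replicate 1 or 2 (adjusted p from 0.053 to 0.102), and that of Fbln2 without any single library other than infant replicate 2 (adjusted p from 0.0676 to 0.0963). Fbln2 held 0.247 times the mean of the other infant libraries in infant replicate 2, and with that library as the only infant library its log2 fold change was -0.68 (adjusted p = 0.277). Lamb3 (-0.73, adjusted p = 0.224) and Col4a5 (-1.15, adjusted p = 0.0536) were not called in that fit either. Tinagl1, a secreted glycoprotein that binds laminin and integrins, changed in the opposite direction. It was measured at 4.7, 7.3 and 4.8 RPKM in infant and at 63.3, 43.4 and 42 RPKM in young adult EC. It rose by a log2 fold change of 2.94 ± 0.20 (adjusted p = 0.000445), more than any other gene of this list, and was called in all 22 alternative settings. The most abundant genes that were not called were the peroxidase Pxdn, which crosslinks collagen IV (88.4 ± 9.45 RPKM in infant and 56 ± 3.66 RPKM in young adult EC, SD, n = 3 each; log2 fold change -0.65, adjusted p = 0.00914 but below the fold limit), and Egflam (log2 fold change -0.51, adjusted p = 0.0927). The endothelial glycoprotein Mmrn2 was also uncalled, at 0.66 (adjusted p = 0.0166, below the fold limit). The log2 fold change of Lamb2 was -0.67 ± 0.25 (adjusted p = 0.0855), and the low transcripts Lama1 and Lamc3 had 0.72 (adjusted p = 0.0314, below the fold limit) and 0.12 (adjusted p = 0.639). Col18a1 and Col15a1, the multiplexin collagens, had -0.45 (adjusted p = 0.206) and -0.62 (adjusted p = 0.104).

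**Figure D4:**
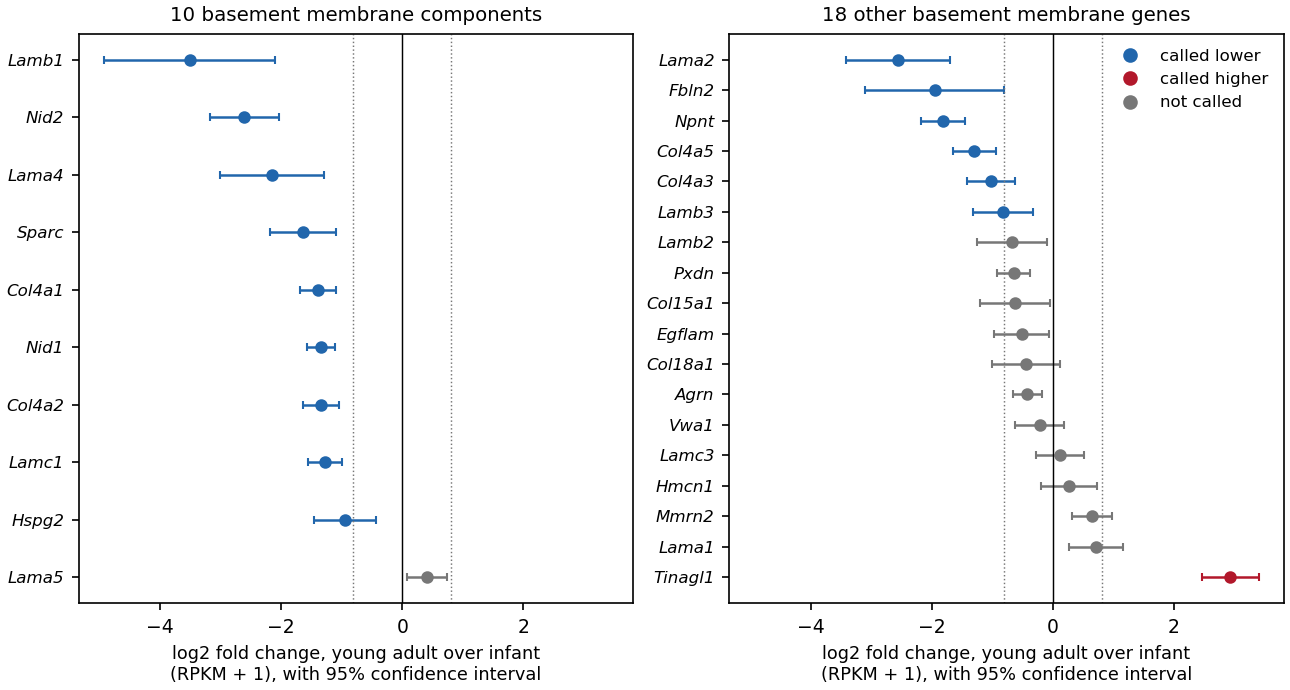
log2 fold change of RPKM + 1, young adult over infant, with 95% confidence intervals from limma, for the 10 members (left) and 18 other basement membrane genes (right); dotted lines mark the fold limit, blue points were called lower, red higher and grey neither. On the left, 9 of 10 points are blue and Lama5 is grey at 0.41, and on the right 6 are blue and Tinagl1 alone is red at 2.94.

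The SPARC family, matricellular proteins that share a calcium-binding domain with SPARC, had 3 of 7 listed genes in the table besides Sparc itself. Fstl1 was measured at 376.1, 90.1 and 347.3 RPKM in infant and at 32.9, 38.2 and 32.6 RPKM in young adult EC (a log2 change of -2.69 ± 0.49, adjusted p = 0.00956). Infant replicate 2 again lay between the groups for this gene. Sparcl1 was at 185.8, 172.4 and 201.4 RPKM in infant and at 74.3, 95.5 and 61.4 RPKM in young adult EC, with a log2 fold change of -1.28 ± 0.17 (adjusted p = 0.00312). With infant replicate 2 as the only infant library Sparcl1 was at -1.17 and not called (adjusted p = 0.0873). Smoc2 did not pass the fold limit (-0.68, adjusted p = 0.0257).

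Of 22 tested genes that fold, modify and export collagen chains, 4 were called lower, 1 higher and 17 neither, against 8.1% lower and 3.33% higher of all tested genes, and their median log2 fold change was -0.17. Serpinh1, the collagen chaperone HSP47, was measured at 415.9, 295.9 and 448.5 RPKM in infant and at 140.9, 211 and 201.8 RPKM in young adult EC (a log2 change of -1.06 ± 0.22, adjusted p = 0.014). This call was lost without infant replicate 1 (adjusted p = 0.0522) or without young adult replicate 1 (adjusted p = 0.0548). The retrieval receptor Kdelr3 (-3.02 ± 0.59, adjusted p = 0.0117) lost its call without young adult replicate 1 or 2 (adjusted p = 0.0515 and 0.0541). The prolyl 4-hydroxylase subunit P4ha3, listed at 0 in all young adult libraries (adjusted p = 0.0324), and the prolyl 3-hydroxylase Leprel2 (-0.97 ± 0.25, adjusted p = 0.0269) lost theirs without any single library other than infant replicate 2 (adjusted p from 0.0718 to 0.107). With infant replicate 2 as the only infant library Serpinh1 was at -0.70 and Leprel2 at -0.40, both short of the fold limit. P4ha3 was at 4.4, 0.4 and 3.7 RPKM in infant replicates 1, 2 and 3 and did not reach the filter in that fit. Its log2 fold change over all libraries was -1.72 ± 0.46. P4ha2, another catalytic subunit of prolyl 4-hydroxylase, was higher in young adult EC, at 15.6, 16.3 and 15.5 RPKM against 6.7, 7.1 and 6.4 RPKM in infant EC (1.12 ± 0.09, adjusted p = 0.000642). The abundant endoplasmic reticulum chaperones Hspa5, Hsp90b1 and Ppib were not called, with log2 fold changes of -0.26 (adjusted p = 0.209), -0.02 (adjusted p = 0.913) and -0.03 (adjusted p = 0.9).

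Of 9 basement membrane receptors tested, 0 were called lower, 2 higher and 7 neither, against 8.1% lower and 3.33% higher of all tested genes, and the median log2 fold change was 0.29. Itga1, the alpha subunit of a collagen-binding integrin, was measured at 39, 45 and 34.9 RPKM in infant and at 80.8, 86.6 and 69.5 RPKM in young adult EC (0.98 ± 0.13, adjusted p = 0.00339). Itga6, the alpha subunit of laminin-binding integrins, was at 17.4, 17.9 and 18.4 RPKM in infant and at 39.3, 33.9 and 29.6 RPKM in young adult EC (0.89 ± 0.12, adjusted p = 0.00312). The change of Itga6 was 0.79 without young adult replicate 1, 0.79 with totals without globin genes and 0.77 with pseudocount 5, each short of the fold limit. With infant replicate 2 as the only infant library neither integrin subunit was called, at 0.79 for Itga1 (adjusted p = 0.0721) and 0.89 for Itga6 (adjusted p = 0.0748). Their partner Itgb1 was at -0.48 on the log2 scale (adjusted p = 0.0168, below the fold limit), and Bcam and Cd151, a laminin alpha 5 receptor and an integrin-associated tetraspanin, had 0.29 (adjusted p = 0.434) and 0.33 (adjusted p = 0.236). Of the 34 genes of these SPARC family, processing and receptor lists, 6 were called lower, against 8.1% of all tested genes. Without infant replicate 1, young adult replicate 1 and young adult replicate 2, 3, 2 and 3 of them were called lower. The counts over all tested genes in these fits were 615, 514 and 551.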

How the data were processed

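RNA of sorted lung EC was amplified by the authors with a SMARTer Ultra Low kit and sequenced, and the submitters' processing notes name STAR, DESeq2 and the mouse build mm10. The deposited values are RPKM on RefSeq transcripts, calculated by the authors and rounded to 1 decimal, in 17241 rows for 12623 genes. For 2842 genes with several rows the row with the highest mean was kept, and each member had 1 row. Groups and replicate numbers came from the library titles, and the libraries were treated as independent samples. Rounding and unknown depth limit transcripts near 0.1 RPKM, amplification from little RNA adds variation that RPKM does not show, and RPKM shares a total, so abundant erythroid transcripts can lower all other values.

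Genes with at least 1 RPKM in at least 1 library were tested as log2(RPKM + 1) in limma 3.58.1 (R 4.3.3, eBayes with trend, 3 against 3 libraries, no covariates), with Benjamini-Hochberg adjustment over 12458 genes. Chain ratios were compared by exact two-sided permutation tests (scipy 1.17.1). All members are named, and of each further list the called genes (at most the 6 with the largest change) and the 3 uncalled genes with the highest mean RPKM. Members and lists were chosen with earlier results of these data known. Alternatives were other pseudocounts, filters, scalings, tests, a replicate block and leaving out each library. Coordinates are from the GENCODE and RefSeq annotation of mm10 (GRCm38). Protein sequences and the methylation data of the study were not analysed here.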

Additional observations from a re-analysis of the deposited data

How the results depend on the processing

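Of 194 recomputed values of the main results, 176 were labelled the same, under loose rules. A count of called genes was labelled the same when it stayed near the main count. For example, 4 other basement membrane genes called lower with quantile normalization passed as the same as 6. The median of the members had to stay within the spread between libraries, and a chain ratio only had to keep the sign of its difference. The members called lower numbered 8 or 9 in every one of the 22 settings except limma's treat, which tests against the fold limit itself and called 2 (Nid1 and Nid2), and 0 were called higher in any. The median log2 fold change of the members ranged from -1.52 (pseudocount 0.1) to -1.25 (infant replicate 2 as the only infant library). Leaving out single libraries gave 8 or 9 members called lower, against 514 to 1308 of all tested genes. Of 12458 tested genes, 338 were called lower with pseudocount 5, 124 under treat and 959 with a replicate block. The main fit called 1009 lower. The other basement membrane genes called lower, 6 in all, numbered 2 with pseudocount 5 and 1 under treat. The counts over all tested genes also fell in these fits, as given above. Those called higher numbered 2 with pseudocount 0.1 or quantile normalization and 3 without a fold limit, against 1. Over all tested genes, 532, 532 and 1154 were called higher in these fits, against 415. Of the SPARC family, processing and receptor genes, 0 were called lower under treat, 11 without a fold limit and 2 to 7 with single libraries left out, against 6. Over all tested genes these counts were 124, 2022 and 514 to 1308, against 1009. Called higher were 0 of these genes under treat, against 3, and 52 of all tested genes, against 415. The difference in the Col4a1 to Col4a2 log2 ratio, -0.029, ranged from -0.086 to 0.035 with single libraries left out and was 0.086 with infant replicate 2 alone. Hspg2 lost its call in 8 of its 20 alternatives, and Lama5 passed an adjusted p of 0.05, below the fold limit, with quantile normalization (0.0302), median scaling (0.0474) and without infant replicate 1. Quantile normalization moved the median of all tested genes from -0.07 to 0.04, and totals without globin genes moved it to -0.16; the directions of the members were the same under both. Same-numbered libraries of the 2 groups did not deviate together (r of 0.028, -0.11 and -0.021, and no library correlated best with its own number), and with a replicate block 9 members were called lower, with a median of -1.37, while Fbln2 (adjusted p = 0.056) and Lamb3 (0.0712) lost their calls in limma. The causes of these changes were not tested. Depth could not be assessed from RPKM, which limits Hspg2, Nid2 and Lamb1 in young adult EC most.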

Other observations

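Among all genes other than the members, those whose pattern was most like the members' were named by their Pearson correlation over the 6 libraries. The correlation was with the mean standardised log2(RPKM + 1) of the members, and genes needed a mean of at least 5 RPKM. The genes most alike were Pdgfrb (r = 0.999), Col1a2 (0.999), Thbs1 (0.998), Dbn1 (0.998), Mmp14 (0.997), Gper1 (0.997), Pamr1 (0.997), Des (0.997), Col6a1 (0.997) and Adam19 (0.997). Pdgfrb, a receptor typical of mural cells and fibroblasts, was measured at 69.4, 17.4 and 57.1 RPKM in infant and at 1.2, 2.2 and 1.9 RPKM in young adult EC. Thbs1, an anti-angiogenic matricellular protein, was measured at 90.8, 33.8 and 79.9 RPKM in infant and at 8.5, 9.5 and 8.9 RPKM in young adult EC, and Mmp14, a membrane-bound matrix metalloproteinase, at 22.9, 11.7 and 19.9 RPKM and at 2.8, 4.1 and 3.6 RPKM. In each of the 10, infant replicate 2 lay between the other infant libraries and the young adult libraries, and held 0.212 to 0.547 times the mean of infant replicates 1 and 3. Pdgfrb, Col1a2 and Des are on the mural or fibroblast marker lists used above. The correlations rest on 6 libraries in 2 groups and are given without a test.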
